A study of Homo sapiens with 6 samples.

Results

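Tropomyosins, transgelins, a calponin, alpha-actinins and a myosin light chain were compared between Hep G2 cells that overexpressed EFTUD2 and cells with an empty vector. The 10 genes were TPM1, TPM2, TPM3, TPM4, TAGLN, TAGLN2, CNN2, ACTN1, ACTN4 and MYL9, taken by symbol from a table of 23524 genes, with no threshold on a measured value. TPM2 stood higher in each EFTUD2 library than in any control library, with a ratio of means of 3.79, and TAGLN stood lower, with a ratio of means of 0.485. TPM1 was also lower in every EFTUD2 library (ratio of means 0.686), as were, by less and not under every scaling of the libraries, ACTN1 (0.898) and ACTN4 (0.879), whereas TPM3, TPM4, TAGLN2, CNN2 and MYL9 overlapped between the groups. None of the 10 genes passed an adjusted p of 0.05 in the test over all genes.

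Hep G2 is a human line from a liver tumor. The control group carried the empty lentiviral vector and the EFTUD2 group a lentiviral vector for EFTUD2, a GTPase of the U5 particle of the spliceosome, and both came from stable infection and puromycin selection. Each group had 3 libraries of poly-A RNA sequenced on the BGISEQ-500 platform, and the sources used here do not say whether they came from separate cultures, from a pool of selected cells or from 1 clone, nor which promoter drove EFTUD2. The study made these profiles to look for genes behind the effect of EFTUD2 on growth and spread of liver tumor cells. The values were FPKM (fragments counted for a gene, divided by transcript length and library size), so levels of different genes can be set side by side but the number of reads behind a value is unknown.

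Actin filaments give a cell its shape and its grip. Tropomyosins are coiled-coil dimers that lie along the filament and set which other proteins can bind it, and the 4 human genes give many isoforms by alternative promoters and exons. Transgelins and calponins bind along the same filaments, alpha-actinins tie filaments into bundles, and the myosin regulatory light chain switches myosin II on. TPM1, TPM2, TAGLN and MYL9 are known as genes of smooth muscle and other contractile cells, while TPM3, TPM4, TAGLN2, CNN2, ACTN1 and ACTN4 are made in most cells.

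EFTUD2 (Entrez gene 9343) was at 41.14, 54.35 and 46.34 FPKM in control, against 106.62, 102.9 and 109.48 FPKM in EFTUD2 replicates 1 to 3. The overexpressing libraries thus carried 2.25 times the control mean and matched their label. The FPKM values of a library summed to between 404342 and 434543. EFTUD2 replicate 3 stood apart from the other overexpressing libraries. The SD over genes of its log2 difference was 0.508 from EFTUD2 replicate 1 and 0.596 from EFTUD2 replicate 2, against 0.231 between replicates 1 and 2 and between 0.213 and 0.363 among the controls. In bulk RNA, fewer cells of a kind and less RNA per cell cannot be told apart.

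Of 17222 genes tested by limma on log2(FPKM + 1), 0% had an adjusted p under 0.05. EFTUD2 itself did not pass, with a log2 fold change of 1.16 and an adjusted p of 0.131 in limma. A lack of calls is therefore not evidence that a gene was unchanged. An unadjusted p under 0.05 was given to 2118 genes (12.3%), of which 757 (4.4% of the genes tested) were higher and 1361 (7.9%) lower with EFTUD2. The groups did not overlap for 27.3% of the genes, 7.92% with every EFTUD2 library higher and 19.4% with every one lower. All of the 10 genes were tested and limma gave 0 of them an adjusted p under 0.05. An unadjusted p under 0.05 was given to 1 higher gene (TPM2) and 2 lower genes (TPM1 and TAGLN). Groups without overlap were seen for 1 higher gene (TPM2) and 4 lower genes (TPM1, TAGLN, ACTN1 and ACTN4). The median log2 fold change of the 10 genes was -0.12 (-0.004 with libraries scaled by the median of ratios), and that of all genes tested was -0.08 (0.002). With 3 libraries a group, the smallest p of an exact two-sided permutation test is 0.1, which each of the 5 genes without overlap reached.

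**Figure D1:**
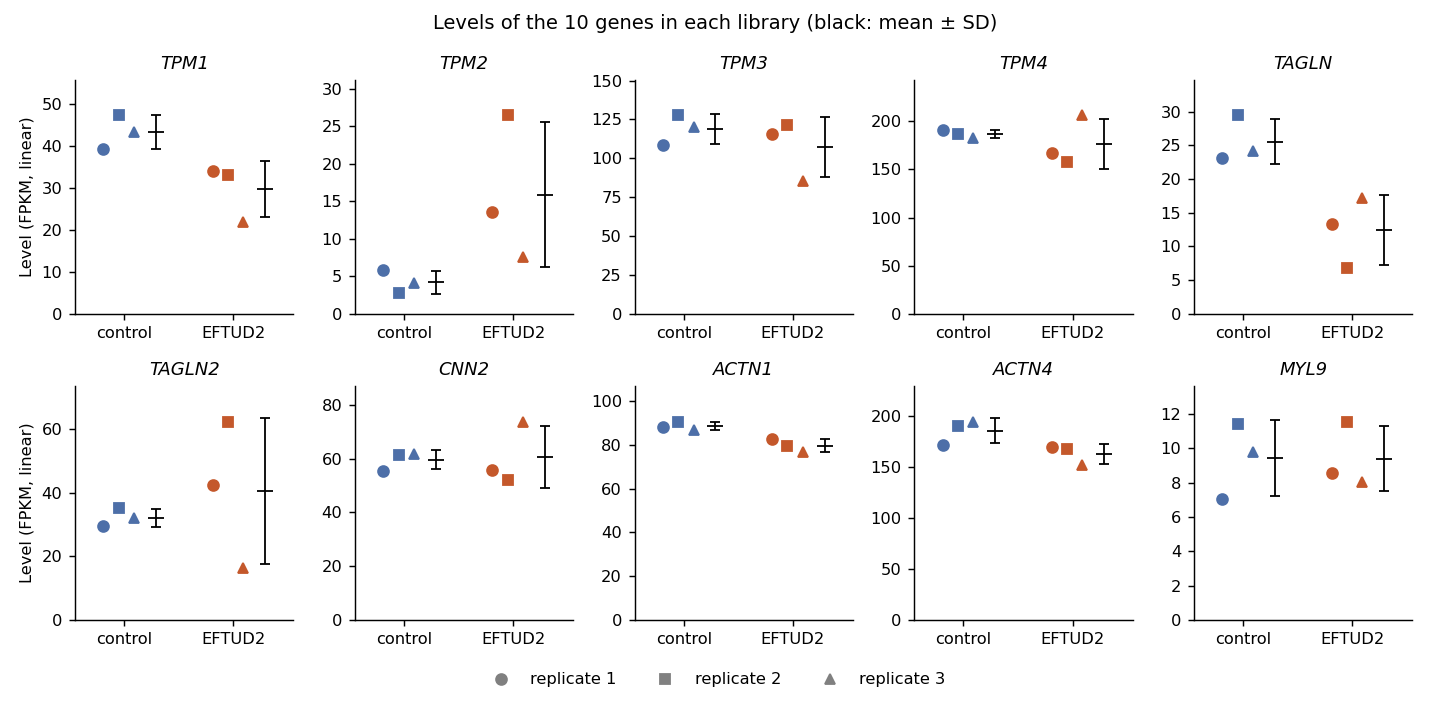
Levels of the 10 genes in FPKM on linear axes that start at 0, with 1 panel a gene, control libraries in blue and EFTUD2 libraries in orange, circles, squares and triangles for replicates 1, 2 and 3, and the mean ± SD in black. TPM2 lies above and TAGLN and TPM1 lie below all controls in each EFTUD2 library, and TAGLN2 in EFTUD2 replicates 1 and 2 is above the controls and in replicate 3 below them.

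TPM2 encodes beta-tropomyosin (Entrez gene 7169, chr9:35681993-35690056, GRCh38.p14). The study designed a pair of qPCR primers for it, and the stretch they copy shows which messages such an assay would read. It is printed 5′ to 3′ with both primer sites in capitals, the second as the reverse complement of its primer.
TPM2 qPCR product: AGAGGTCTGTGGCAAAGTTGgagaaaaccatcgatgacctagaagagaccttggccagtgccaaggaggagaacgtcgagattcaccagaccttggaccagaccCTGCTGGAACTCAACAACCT
This 124-base product lies in coding sequence across the junction of exons 8 and 9 of 3 TPM2 transcripts of GENCODE release 29, on the minus strand at chr9:35682085-35684290 (GRCh38). Both primers matched 4 of the 12 TPM2 transcripts, all 4 protein coding, and in the fourth the product was 865 bases long. No transcript of another gene among 206694 matched both primers. The FPKM value sums the gene's transcripts and does not separate them. The paper reports that qPCR bore out part of the upregulated genes of highest significance in its RNA-Seq, in a legend that names no gene. Its main text cites that figure for changed genes of the epithelial-mesenchymal transition and for IL-6, and does not name TPM2. No qPCR value of TPM2 was read here. As the study picked genes for qPCR from these libraries, its choice of TPM2 is not independent evidence of a direction.

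In control replicates 1 to 3, TPM2 stood at 5.78, 2.71 and 4.09 FPKM. EFTUD2 replicates 1 to 3 had 13.59, 26.45 and 7.62 FPKM. The lowest overexpressing library was above the highest control, and EFTUD2 replicate 2 exceeded replicate 3 by 3.47 times. The mean was 4.19 ± 1.54 FPKM in control and 15.9 ± 9.62 FPKM in EFTUD2 cells (SD, n = 3 each). Its log2 fold change was 1.58 (standard error 0.43, 95% interval 0.56 to 2.61), with an adjusted p of 0.402 in limma. Leaving out EFTUD2 replicate 3 gave a log2 fold change of 1.99 with an adjusted p of 0.064 in limma, and over the 6 fits without 1 library it ranged from 1.15 to 1.99.

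Alpha-tropomyosin, the product of TPM1 (Entrez gene 7168, chr15:63042747-63071915), forms dimers with beta-tropomyosin in muscle. TPM1 was at 39.26, 47.31 and 43.24 FPKM in control replicates 1 to 3. EFTUD2 replicates 1 to 3 had 34.12, 33.02 and 21.96 FPKM. All EFTUD2 values were lower than the lowest control, opposite in sign to TPM2, and replicate 3 was the lowest. The mean was 43.3 ± 4.03 FPKM in control and 29.7 ± 6.73 FPKM in EFTUD2 cells (SD, n = 3 each). Its log2 fold change of -0.55 (standard error 0.18, 95% interval -0.99 to -0.11) had an adjusted p of 0.402 in limma, and it was -0.35 without EFTUD2 replicate 3. TPM1 shared 30.5% of its 50-base stretches with transcripts of other genes in GENCODE, most of them with TPM1-AS on the opposite strand (22.0%). How the authors' counting used strand is not given in the sources used here, so its reads and those of TPM1-AS cannot be told apart.

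TPM3 and TPM4 encode the tropomyosins of most non-muscle cells, and they were the most abundant of the 4 in every library. TPM3 (Entrez gene 7170, chr1:154155308-154192100) was at 108.75, 127.62 and 120.34 FPKM in control, against 115.56, 121.43 and 85.39 FPKM in EFTUD2 replicates 1 to 3. EFTUD2 replicates 1 and 2 lay among the controls and replicate 3 below them. The log2 fold change was -0.16 (95% interval -0.53 to 0.22) with all libraries and -0.0023 without EFTUD2 replicate 3. TPM4 (Entrez gene 7171, chr19:16067538-16103002) was at 191.23, 186.77 and 182.48 FPKM in control, against 167.09, 157.26 and 206.24 FPKM in EFTUD2 replicates 1 to 3. Here EFTUD2 replicates 1 and 2 were below every control and replicate 3 above every control. The log2 fold change of TPM4 was -0.09 (95% interval -0.39 to 0.22), and it turned to 0.029 when libraries were scaled by the median of ratios. The adjusted p in limma was 0.626 for TPM3 and 0.742 for TPM4. TPM4 shared 24.3% of its 50-base stretches with other genes, mainly AC008894.3 on the opposite strand.

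Summed over the 4 genes, tropomyosin was at 353.2 ± 10.1 FPKM in control and 329.9 ± 8.48 FPKM in EFTUD2 cells (SD, n = 3 each). The highest EFTUD2 sum, 338.2 FPKM, was under the lowest control sum, 345.0 FPKM, but with libraries scaled by the median of ratios the sums overlapped. Within this sum, TPM2 held 1.68%, 0.744% and 1.17% in control replicates 1 to 3. In EFTUD2 replicates 1 to 3 its share was 4.11%, 7.82% and 2.37%, so no EFTUD2 library was as low as a control. On average TPM2 held 3.57 percentage points more of the pool in EFTUD2 cells, and 2.05 points more without EFTUD2 replicate 2. The share of TPM1 was 12.2% ± 0.81 (SD, n = 3) in control and 8.98% ± 1.87 (SD, n = 3) in EFTUD2 cells, a difference of -3.26 percentage points. TPM4 made up 52.9% ± 2.20 (SD, n = 3) and 53.8% ± 9.27 (SD, n = 3), and TPM3 33.6% ± 1.86 (SD, n = 3) and 32.5% ± 5.14 (SD, n = 3). These differences of TPM3 and TPM4 were smaller than the SD between EFTUD2 libraries. Without EFTUD2 replicate 3 they changed sign, to 1.81 points for TPM3 and -4.39 points for TPM4, and that of TPM4 was -0.007 points without control replicate 2.

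The ratio of TPM2 to TPM1 did not overlap between the groups. It was 0.147, 0.0573 and 0.0946 in control replicates 1 to 3, and 0.398, 0.801 and 0.347 in EFTUD2 replicates 1 to 3. A ratio within a library does not depend on how libraries are scaled to each other. TPM2 remained the smaller of the pair in all 6 libraries.

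**Figure D2:**
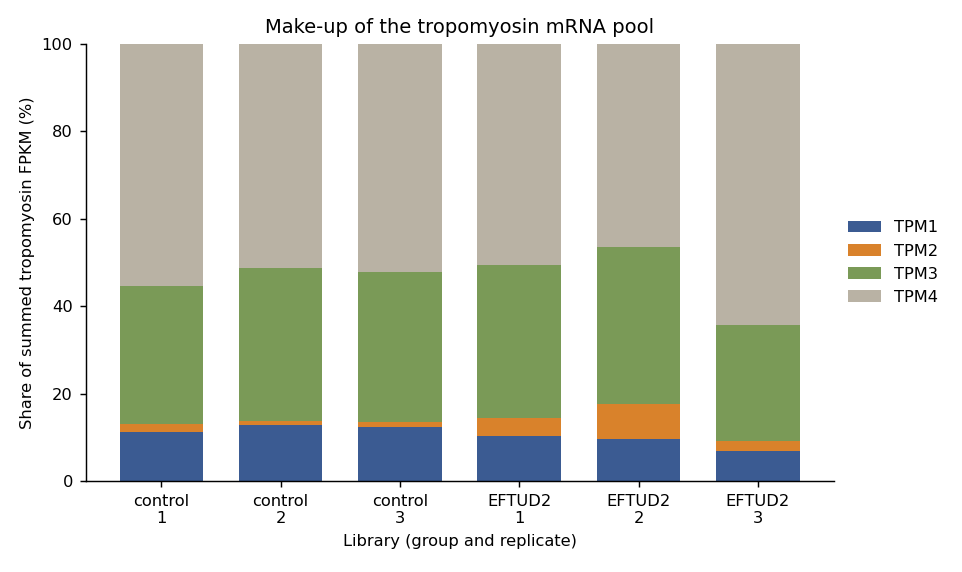
Share of each tropomyosin gene in the summed tropomyosin FPKM of a library in percent, stacked to 100, with 1 bar for each of the 3 control and 3 EFTUD2 libraries. The TPM2 band is 0.744% to 1.68% high in control and 2.37% to 7.82% high in EFTUD2 libraries, and EFTUD2 replicate 3 has the highest TPM4 share, 64.2%.

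Transgelin (TAGLN, also SM22-alpha, Entrez gene 6876, chr11:117199294-117207465) is an early marker of smooth muscle that binds actin. TAGLN was at 23.12, 29.43 and 24.11 FPKM in control replicates 1 to 3. In EFTUD2 replicates 1 to 3 it stood at 13.27, 6.80 and 17.12 FPKM. Every EFTUD2 library was lower than the lowest control, and replicate 2, which had the most TPM2, had the least TAGLN. The mean was 25.6 ± 3.39 FPKM in control and 12.4 ± 5.22 FPKM in EFTUD2 cells (SD, n = 3 each). For TAGLN the log2 fold change was -1.06 (standard error 0.30, 95% interval -1.78 to -0.34), with an adjusted p of 0.402 in limma. Over the fits that left out 1 library it lay between -1.32, without EFTUD2 replicate 3, and -0.72. In GENCODE, 13.2% of its 50-base stretches also occur in PCSK7, which overlaps it on the opposite strand.

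TAGLN2, the transgelin of non-muscle and blood cells (Entrez gene 8407, chr1:159918111-159925507), was at 29.48, 35.12 and 32.00 FPKM in control replicates 1 to 3. In EFTUD2 replicates 1 to 3 it stood at 42.61, 62.44 and 16.44 FPKM. EFTUD2 replicates 1 and 2 were above every control, and replicate 3 was below every control. The SD was 2.83 FPKM in control and 23.1 FPKM in EFTUD2 cells (n = 3 each). For TAGLN2 limma gave a log2 fold change of 0.14 with an adjusted p of 0.887 (standard error 0.44, 95% interval -0.90 to 1.17). It was 0.67 without EFTUD2 replicate 3 and -0.26 without EFTUD2 replicate 2, so its direction rested on single libraries. TAGLN2 shared 6.89% of its 50-base stretches with the pseudogene TAGLN2P1.

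Within the transgelins, TAGLN stood at 0.784, 0.838 and 0.753 of TAGLN2 in control replicates 1 to 3. The ratio was 0.311 and 0.109 in EFTUD2 replicates 1 and 2. In EFTUD2 replicate 3 it was 1.04, higher than in any control. The overexpressing libraries thus lay on both sides of the controls.

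CNN2 encodes the calponin of non-muscle cells (Entrez gene 1265, chr19:1026608-1039065). It was at 55.54, 61.43 and 61.84 FPKM in control, against 55.63, 52.17 and 73.79 FPKM in EFTUD2 replicates 1 to 3. The groups overlapped, with means of 59.6 ± 3.52 and 60.5 ± 11.6 FPKM (SD, n = 3 each). The log2 fold change of 0.01 (95% interval -0.35 to 0.36) was -0.14 without EFTUD2 replicate 3 and -0.04 at a common FPKM sum, so no direction can be given. AC011558.1 on the opposite strand shared 9.74% of its 50-base stretches.

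The alpha-actinins of non-muscle cells crosslink filaments in stress fibers and at adhesions. ACTN1 (Entrez gene 87, chr14:68874128-68979302) was at 88.12, 90.63 and 86.92 FPKM in control, against 82.55, 79.45 and 76.60 FPKM in EFTUD2 replicates 1 to 3. ACTN4 (Entrez gene 81, chr19:38647649-38731589) was at 171.67, 190.69 and 194.62 FPKM in control, against 169.94, 167.65 and 151.72 FPKM in EFTUD2 replicates 1 to 3. Both were lower in each EFTUD2 library than in any control, though for ACTN4 the nearest libraries were 169.94 and 171.67 FPKM. The log2 fold changes were small, -0.15 (standard error 0.09, 95% interval -0.37 to 0.06) for ACTN1 and -0.19 (standard error 0.11, 95% interval -0.44 to 0.07) for ACTN4. Neither passed the test, with adjusted p values of 0.454 and 0.451 in limma. When libraries were scaled by the median of ratios, the groups overlapped for both, and the log2 fold changes were -0.04 and -0.07. The lower actinin values thus depended on the scaling, whereas TPM1 and TAGLN stayed below and TPM2 above all controls under that scaling.

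The proportion of ACTN1 to ACTN4 differed by less than its spread between libraries. The ratio was 0.513, 0.475 and 0.447 in control and 0.486, 0.474 and 0.505 in EFTUD2 replicates 1 to 3. The means were 0.478 ± 0.033 and 0.488 ± 0.016 (SD, n = 3 each), and the groups overlapped. The 2 genes share 0.61% of the 50-base stretches of ACTN1, and CAPN12 on the opposite strand shares 13.7% of those of ACTN4.

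MYL9, a regulatory light chain of myosin II (Entrez gene 10398, chr20:36541519-36551447), was at 7.07, 11.43 and 9.77 FPKM in control replicates 1 to 3. In EFTUD2 replicates 1 to 3 it stood at 8.55, 11.56 and 8.05 FPKM. The groups overlapped almost fully, with means of 9.42 ± 2.20 and 9.39 ± 1.90 FPKM (SD, n = 3 each). Its log2 fold change was 0.00 (95% interval -0.49 to 0.49). It took either sign when 1 library was left out, from -0.17 to 0.14.

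Among the control means, TPM4 (186.8 FPKM) and ACTN4 (185.7 FPKM) were highest and overlapped. They were followed by TPM3, ACTN1, CNN2, TPM1, TAGLN2, TAGLN, MYL9 and TPM2, and no neighbors in that part of the order overlapped between libraries, though TAGLN2 and TAGLN were separated only by 29.48 against 29.43 FPKM. In EFTUD2 cells the mean of TPM2 was above those of TAGLN and MYL9. The ranges of these 3 genes overlapped there, from 7.62 to 26.45 FPKM for TPM2, 6.80 to 17.12 FPKM for TAGLN and 8.05 to 11.56 FPKM for MYL9. The sum of all 10 genes was 754.2 ± 31.9 FPKM in control and 695.4 ± 27.4 FPKM in EFTUD2 cells (SD, n = 3 each), and it too overlapped between groups under the median of ratios.

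**Figure D3:**
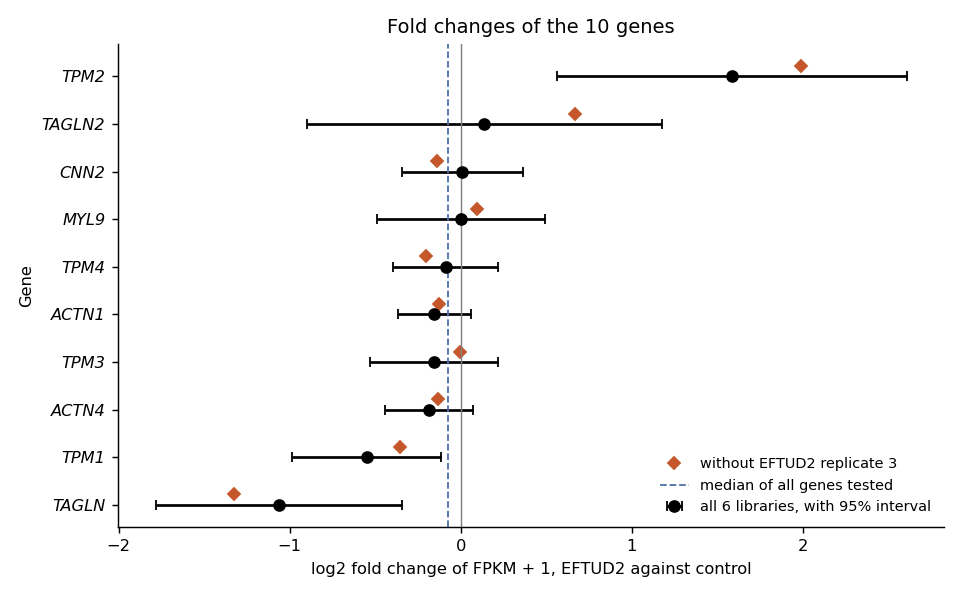
Log2 fold change of FPKM + 1, EFTUD2 against control, for each of the 10 genes (black points with the 95% interval from limma), the same without EFTUD2 replicate 3 (orange diamonds, no interval drawn), and the median of all genes tested (dashed line, -0.08). The intervals of TPM2, TPM1 and TAGLN lie off 0 before adjustment for the number of genes, and TAGLN2 has the widest interval.

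Patterns over the 6 libraries were set side by side as the root mean square difference of log2(FPKM + 1) values, each gene centred on its own mean. The most alike pair of the 10 genes was ACTN1 and ACTN4 (0.065), followed by TPM4 and CNN2 (0.089) and TPM3 and ACTN4 (0.114). TPM4 and CNN2 had in common that EFTUD2 replicate 2 was their lowest library and EFTUD2 replicate 3 their highest. TPM2 and TAGLN were the least alike (1.61), then TPM1 and TPM2 (1.17) and TAGLN and TAGLN2 (1.07). The measure is not scaled to a gene's own spread. Genes that vary little thus come out alike, and genes with large opposite changes come out least alike. These are descriptions over 6 libraries that share their scaling, with no test.

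TPM2 had the largest absolute log2 fold change of the 10 genes. Of the 12554 genes compared, all with a mean of at least 1 FPKM, the 5 nearest to TPM2 were CD55 (0.187), BGI_novel_G004074 (0.202), GNG12 (0.208), TSPO (0.218) and BGI_novel_G004213 (0.223). CD55 encodes a cell surface inhibitor of complement, GNG12 a G protein gamma subunit and TSPO a protein of the outer mitochondrial membrane, while the provider's identifiers carry no gene name. CD55 was at 10.23, 7.45 and 7.56 FPKM in control, against 24.93, 43.01 and 16.99 FPKM in EFTUD2 replicates 1 to 3. TSPO was at 3.24, 2.26 and 2.93 FPKM in control, against 8.86, 16.18 and 6.82 FPKM in EFTUD2 replicates 1 to 3. Like TPM2, both were highest in EFTUD2 replicate 2 and lowest among EFTUD2 libraries in replicate 3. That order follows from their choice by likeness to TPM2 in these same libraries. GNG12 and BGI_novel_G004213, with control means of 0.427 and 0.237 FPKM, reached the mean of 1 FPKM only through the EFTUD2 libraries.

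**Figure D4:**
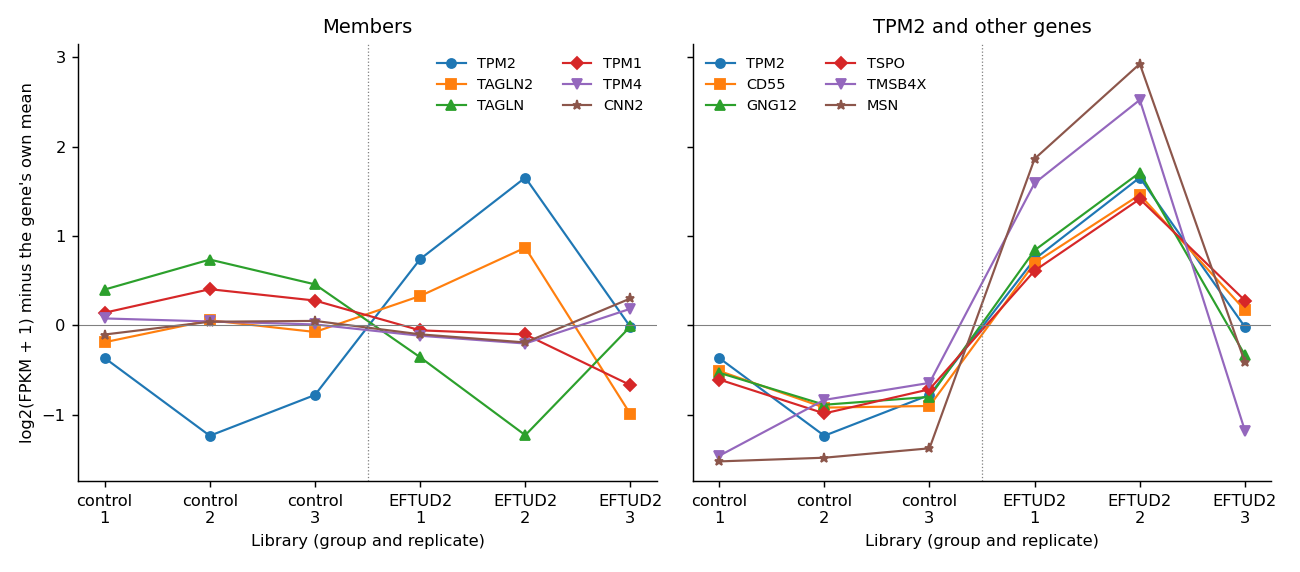
Values of log2(FPKM + 1) minus the gene's own mean over the 6 libraries, for 6 of the 10 genes (left) and for TPM2 beside CD55, GNG12, TSPO, TMSB4X and MSN (right), with lines drawn only to guide the eye. TPM2 and TAGLN mirror each other in EFTUD2 replicate 2 (1.65 and -1.23), and the genes on the right peak in EFTUD2 replicate 2. CD55, GNG12 and TSPO were chosen for their likeness to TPM2.

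Beside these genes, 79 others of the actin cytoskeleton were read from 8 lists. All were in the table and 71 were tested, and limma gave 0 of these an adjusted p under 0.05. Of the 71 genes, 54 were lower (76.1%) and 17 higher with EFTUD2, with a median log2 fold change of -0.17. Over all genes tested, 62.7% were lower, with a median of -0.08. Scaling by the median of ratios moved the split to 43 lower (60.6%) against 49.7% of all genes, and the median of the pathway genes to -0.06. Without overlap between groups, 22 pathway genes were lower (31.0%) and 4 higher (5.63%), beside 19.4% and 7.92% of all genes. Under the median of ratios 12 were lower (16.9%) and 5 higher (7.04%), beside 12.1% and 11.9% of all genes. At a common FPKM sum 28 were lower (39.4%) and 4 higher (5.63%), beside 23.0% and 6.83% of all genes. Limma gave an unadjusted p under 0.05 to 13 lower (18.3%) and 1 higher (1.41%) pathway genes, beside 7.9% and 4.4% of all genes. The 1 higher gene was MSN, also among the 4 higher without overlap. MSN passed the filter on low values only through the EFTUD2 libraries, so its place in these counts is not support for a direction.

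Actins are the subunits of the filaments. ACTB, cytoplasmic beta-actin, was at 1323 ± 213 FPKM in control and 1338 ± 79.4 FPKM in EFTUD2 cells (SD, n = 3 each), a log2 fold change of 0.03 (95% interval -0.37 to 0.43) that was -0.10 without control replicate 1. Of 5 actins tested, 1 was higher and 4 lower (3 higher and 2 lower under the median of ratios), and the farthest from 0 was skeletal muscle ACTA1 (-0.40), which was at or under 3.13 FPKM in every library. Its log2 fold change was -0.77 without EFTUD2 replicate 3 and -0.10 without EFTUD2 replicate 2.

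A list of 10 genes held relatives of the genes above, from muscle and other tissues, and other muscle genes. Of these, 5 were tested, all with a negative log2 fold change, also under the median of ratios, a common sum and quantiles. The others were under the filter on low values. Of those, DES and ACTN2, chosen after their values were seen, stood above every control at 0.09 FPKM or less, and the rest overlapped. The groups did not overlap for 2 of the 5 tested genes (40.0%, beside 19.4% of all genes). CNN1, the calponin of smooth muscle, turned to 0.16 without control replicate 1 and to 0.06 without EFTUD2 replicate 2, a gene chosen after its values were seen. TAGLN3, the neuronal transgelin, was at 1.33, 1.25 and 1.17 FPKM in control, against 1.05, 0.48 and 0.25 FPKM in EFTUD2 replicates 1 to 3, a log2 fold change of -0.53 (standard error 0.19). Its relative CNN3, acidic calponin, was the most abundant of this list and overlapped between groups (log2 fold change -0.24). TAGLN3 was thus, like TAGLN and unlike TAGLN2, lower in each EFTUD2 library than in any control.

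The motor that pulls on these filaments is non-muscle myosin II. Of 10 genes for its chains, kinases and phosphatase, 4 were higher and 6 lower (6 higher and 4 lower under the median of ratios). PPP1R12A, the targeting subunit of the phosphatase that removes phosphate from light chains such as MYL9, was at 14.05, 13.55 and 12.75 FPKM in control replicates 1 to 3. In EFTUD2 replicates 1 to 3 it stood at 10.56, 9.78 and 8.38 FPKM, below every control, and limma gave a log2 fold change of -0.46 with an adjusted p of 0.402 (standard error 0.12). MYL6, the essential light chain, was the most abundant (log2 fold change -0.21, groups overlapping).

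Filament crosslinkers, the list nearest in role to the actinins, had 5 higher and 4 lower genes of 9 tested and a median log2 fold change of 0.06 (0.17 under the median of ratios). PLS1, which bundles actin in microvilli, had a log2 fold change of -0.30 (standard error 0.12) with every EFTUD2 library below the controls, though not under the median of ratios. SPTBN1, a spectrin under the plasma membrane, overlapped (-0.25, and -0.12 without control replicate 1 or -0.41 without EFTUD2 replicate 3). Of 13 nucleators and elongators 10 were lower, with a median of -0.12, and 8 were lower under the median of ratios, with a median of -0.01. The branching complex subunit ARPC2 was the most abundant (log2 fold change -0.28, and -0.13 without EFTUD2 replicate 3) and ARPC4 the farthest from 0. ARPC4 stood at 40.02 and 44.24 FPKM in EFTUD2 replicates 1 and 2, within the controls at 37.15 to 53.28 FPKM, and at 16.5 FPKM in replicate 3. The fold change of ARPC4 on the log2 scale was -0.50, and -0.07 without that library.

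Monomer binders, severers and cappers had 14 lower and 2 higher genes of 16 tested (11 lower under the median of ratios). The thymosins, which hold actin monomers in reserve, had fold changes of opposite sign. TMSB10 was at 802.69, 877.76 and 944.56 FPKM in control, against 704.62, 721.15 and 534.79 FPKM in EFTUD2 replicates 1 to 3 (log2 fold change -0.43, standard error 0.16). TMSB4X was at 9.13, 14.63 and 16.83 FPKM in control, against 82.91, 158.92 and 11.30 FPKM in EFTUD2 replicates 1 to 3. In TMSB4X the EFTUD2 replicates 1 and 2 were far above the controls and replicate 3 lay within them, so the groups overlapped. Its log2 fold change of 1.96 (standard error 0.88) had an adjusted p of 0.405 in limma. It was 1.18 without EFTUD2 replicate 2, and 3.04 without EFTUD2 replicate 3, where the adjusted p was 0.0276 in limma.

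Adhesion and membrane linkers fasten filaments to integrins and to the cell surface. Without overlap 7 of 10 were lower and 2 of 10 higher, beside 19.4% and 7.92% of all genes, and the median log2 fold change was -0.25. Under the median of ratios 3 of 10 were lower without overlap (beside 12.1% of all genes), and the median was -0.14. MSN, which encodes moesin, was at 0.03, 0.06 and 0.14 FPKM in control, against 9.76, 21.45 and 1.22 FPKM in EFTUD2 replicates 1 to 3. Its log2 fold change was 2.92 (standard error 0.76), and 3.85 without EFTUD2 replicate 3. With a control mean of 0.0767 FPKM, MSN passed the filter on low values only through the EFTUD2 libraries. Its p value is therefore not printed, and the thresholds that MSN passed elsewhere in the text are not support for a direction. PDLIM1, which binds alpha-actinin, was the most abundant of the list. It was at 109.68, 118.5 and 119.71 FPKM in control, against 133.61, 129.6 and 201.83 FPKM in EFTUD2 replicates 1 to 3, above every control (log2 fold change 0.39, standard error 0.18, adjusted p 0.413 in limma). Without EFTUD2 replicate 3 the log2 fold change of PDLIM1 was 0.18. EZR, the relative of moesin that prevails in epithelia and a gene chosen after its values were seen, had a log2 fold change of -0.43 and every EFTUD2 library below the controls.

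**Figure D5:**
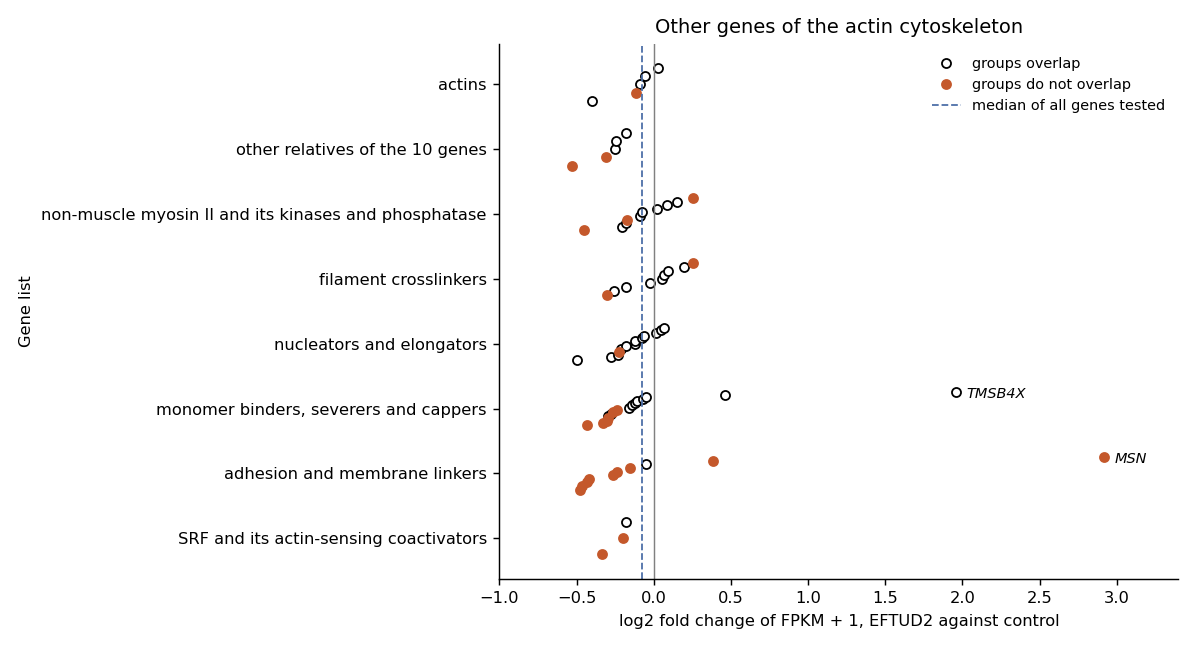
Log2 fold change of FPKM + 1, EFTUD2 against control, of the 71 tested pathway genes in 8 lists (1 row a list, 1 point a gene, filled where the groups did not overlap), with the median of all genes tested as a dashed line. Most points lie left of 0 and within 0.53 of it, while TMSB4X (1.96) and MSN (2.92) lie far to the right.

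Measured from the control mean, TPM2 stood 9.40, 22.3 and 3.43 FPKM higher in EFTUD2 replicates 1 to 3. The excess in replicate 1 was thus 0.422 of that in replicate 2, and the excess in replicate 3 was 0.154 of it. The genes set beside TPM2 here, TMSB4X, MSN and TAGLN2, were chosen after their values were seen. The first of the ratios was 0.477 for TMSB4X and 0.453 for MSN. The second was -0.015 and 0.053. PDLIM1, also above every control, was instead highest in EFTUD2 replicate 3, at 133.61, 129.6 and 201.83 FPKM in replicates 1 to 3. A common cause was not tested. TAGLN2 was 10.4 and 30.2 FPKM higher in EFTUD2 replicates 1 and 2 and below the control mean in replicate 3, with a difference of -15.8 FPKM.

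Markers of hepatocytes and of cells known to make beta-tropomyosin were read in the same libraries. Of 10 hepatocyte markers all had a control mean of at least 1 FPKM, ALB being the highest at a mean of 2734 FPKM, and their sum was 6932 to 10630 FPKM in control and 9278 to 14110 FPKM in EFTUD2 libraries. Of 9 fibroblast markers, 0 had a control mean of at least 1 FPKM and 1 did in EFTUD2 cells, and the highest was PDGFRB at a mean of 1.12 FPKM. In all controls 5 of the 9 (COL1A2, COL3A1, DCN, THY1 and POSTN) were listed at 0, and COL1A2 was also at 0 in the EFTUD2 libraries. The fibroblast sum was 0.52 to 1.63 FPKM in control and 2.35 to 4.89 FPKM in EFTUD2 libraries. Chosen after their values were seen, COL1A1 was at 0.78, 2.05 and 0.11 FPKM and COL3A1 at 0.62, 1.49 and 0.14 FPKM in EFTUD2 replicates 1 to 3, highest where TPM2 was highest. PDGFRB ran the other way, at 1.1, 0.68 and 2.07 FPKM in these libraries, and was lowest where TPM2 was highest. The part of such cells in the TPM2 values was not tested.

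The 8 smooth muscle markers summed to 37.8 to 53.6 FPKM in control and 34.1 to 53.7 FPKM in EFTUD2 libraries. Of these, 2 had a control mean of at least 1 FPKM, the higher being ACTA2 at a mean of 30.5 FPKM, and MYOCD was listed at 0 in all controls. The smooth muscle sum overlapped between the groups, while TPM2 and TAGLN, both known from smooth muscle, lay on opposite sides of their controls. The 8 skeletal or cardiac muscle markers in the table summed to 9.13 to 21.5 FPKM in control and 11.3 to 18.8 FPKM in EFTUD2 libraries, with TNNI2 the highest at a mean of 9.13 FPKM.

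Serum response factor drives many genes of the actin cytoskeleton through the CArG box, with coactivators that are freed when actin monomers become scarce. All 3 genes of that list were lower, also under the median of ratios, a common sum and quantiles. SRF was at 25.82, 26.2 and 23.65 FPKM in control, against 21.72, 20.77 and 23.97 FPKM in EFTUD2 replicates 1 to 3, with overlap. MRTFA, listed in the table by its older symbol, was at 11.77, 10.72 and 9.2 FPKM in control, against 8.16, 9.02 and 7.26 FPKM in EFTUD2 replicates 1 to 3 (log2 fold change -0.34, standard error 0.14). Its EFTUD2 libraries were all below the controls, though not under the median of ratios.

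A CArG box was sought in the RefSeq promoter windows, from 250 bases before to 50 bases after each start (GRCh38.p14). By symbol, 8 of the 10 genes matched a window, and TAGLN and MYL9 did not. The pattern of the box is the same on both strands, so 1 search covers both. It was found for ACTN1, CNN2 and TPM4, beside 1.6% of all 27305 genes with a window. Stretches of 50 bases around it are printed in the direction of the gene, with the box in capitals, to show how near an annotated start it lies.
ACTN1, minus strand, chr14:68977708-68977757: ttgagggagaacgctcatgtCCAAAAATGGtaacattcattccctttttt
CNN2, plus strand, chr19:1026499-1026548: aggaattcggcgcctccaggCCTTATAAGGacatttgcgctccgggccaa
TPM4, plus strand, chr19:16067345-16067394: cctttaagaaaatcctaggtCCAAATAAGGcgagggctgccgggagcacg
The boxes of CNN2 and TPM4 begin 89 and 173 bases before the start of the gene. That of ACTN1 begins 171 bases before an alternative start that lies inside the gene. The log2 fold changes of these 3 genes were -0.15, 0.01 and -0.09. As TAGLN and MYL9 were not searched, boxes and fold changes of the 10 genes cannot be set against each other. A match is a description of letters and not of a bound site.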

How the data were processed

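RNA-Seq was analysed for 3 control and 3 EFTUD2 libraries of Hep G2 cells, grouped and numbered by their titles. The authors deposited 1 table of FPKM per gene and library, rounded to 2 decimals. The submitters' processing notes name HISAT2, Bowtie2, RSEM, DESeq2 and the build hg38, without roles or versions. Counts were not used here, the depth is unknown, and no counting interval is given. The RefSeq gene table (GRCh38.p14), from which positions were taken, matched 18449 of 18762 Entrez gene numbers.

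The deposited FPKM were transformed to log2(FPKM + 1), on which changes of low genes come out too small. Genes whose mean over all libraries reached 0.1 FPKM (17222) were compared by limma 3.58.1 (lmFit and eBayes with trend, two-sided) in R 4.3.3, with Benjamini-Hochberg adjustment over all of them and a threshold of 0.05. For single genes an exact permutation test (two-sided) was added. The p-values measure only the spread between these libraries, which may be technical. The fit was tested on simulated data. Sequences were matched in Python 3.11.15 to GENCODE release 29 and RefSeq.

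The 10 genes, the pathway lists and the marker lists were chosen with earlier results of these data known. Named are the 10 genes and EFTUD2, the most abundant gene and the gene with the largest absolute log2 fold change of each pathway list, the 5 genes most like the member with the largest absolute change, and the most abundant gene of each marker list. Other genes are marked in the text as chosen later, with their values known. MRTFA is named by its current symbol.

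Alternatives were pseudocounts of 0.1 and 0.01, dropping the filter or raising it to 1 FPKM, scaling by the median of ratios, by quantiles or to a common sum, robust empirical Bayes, a block for the replicate number, array weights, and fits that left out 1 library each. Gene-by-gene estimation of the array weights was added after the data were seen.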

Additional observations from a re-analysis of the deposited data

How the results depend on the processing

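With array weights limma called 1246 genes (916 higher, 330 lower), among them 2 of the 10 genes (TPM2 and TAGLN, both with an adjusted p of 0.0077) and 5 pathway genes. MSN, which passed the filter only through the EFTUD2 libraries, was 1 of these 5. The array weights were 27.7 for control replicate 3 against 0.950 and 1.81 for the other controls. For EFTUD2 replicates 1 to 3 they were 0.0348, 2.3 and 0.262. The values of each group thus came mostly from 1 library, control replicate 3 and EFTUD2 replicate 2. That EFTUD2 library had the most TPM2 and the least TAGLN. Weights estimated gene by gene, an alternative chosen after seeing the data, gave 1355 calls (725 higher, 630 lower). Among them were 3 of the 10 genes (TPM1, TPM2 and TAGLN) and 10 pathway genes, again with MSN. The weight was 4.11 for EFTUD2 replicate 1 and 0.121 for EFTUD2 replicate 3. Leaving out 1 library at a time gave 0 to 167 calls, 0 to 153 of them higher and 0 to 14 lower, with 0 to 2 pathway genes (TMSB4X, and MSN, which passed the filter only through the EFTUD2 libraries) and none of the 10 genes. All calls of that kind came without EFTUD2 replicate 3. The cause was not tested. The other settings gave 0 calls.

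TPM2 kept a positive and TPM1, TPM3, TAGLN, ACTN1 and ACTN4 a negative log2 fold change in all 17 alternatives. Over all settings the adjusted p in limma ran from 0.0077 to 0.681 for TPM2 and for TAGLN and from 0.0347 to 0.681 for TPM1. TPM4 turned to 0.029 with the median of ratios. CNN2 turned to -0.035 at a common sum, -0.18 with array weights and -0.14 with weights gene by gene, and ran from -0.14 to 0.10 without 1 library. MYL9 turned to -0.036 at a common sum and -0.092 with weights gene by gene, and ran from -0.17 to 0.14 without 1 library. TAGLN2 ran from -0.26 to 0.67 without 1 library. The count of lower pathway genes stayed between 43 and 57 over the scalings and filters.

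The replicate number as a block gave 0 calls. The deviations of same-numbered libraries from their group means had correlations of both signs, -0.30, 0.35 and -0.09 for numbers 1, 2 and 3. The highest correlation was that of control replicate 1 with EFTUD2 replicate 3 (0.38). With 3 libraries a group these correlations constrain each other, so they cannot show whether the libraries were paired. With 3 libraries a group and FPKM without read numbers, the precision of low genes such as MSN in control cells is unknown.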
